A study of Homo sapiens with 6 samples.

Results

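The genes described here are 10 genes of interleukin and chemokine signalling, namely the cytokine genes IL6, IL11, LIF, EBI3 and IL32, the chemokine gene CCL26 and the receptor genes IL6ST, IL7R, IL4R and IL1R1. They were taken by name, with every probe that carries their symbol, and several were chosen by their higher signal in siCCAR2 than in siCTRL arrays of this experiment. Their differences between these groups are therefore given as a description. The array holds 14 probes for these genes among 47321 in all, and all 10 genes are among the 12013 genes tested. The experiment used U2OS, a human osteosarcoma cell line, grown with 10% fetal calf serum and harvested 6 days after siRNA transfection. In 3 arrays the cells had received a pool of 4 siRNAs against CCAR2 (siCCAR2, arrays D, E and F) and in 3 arrays a control siRNA (siCTRL in the labels, siLUC in the paper, arrays A, B and C). The cells carry no other alteration in the labels, and the triplicates are described as independent. Gene expression was read on Human HT12_v4 bead arrays as a mean bead signal per probe.

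Interleukins are secreted proteins that cells use to signal to each other through receptors on the cell surface. IL-6, IL-11 and LIF form a family that shares the receptor chain gp130, the product of IL6ST, which activates the JAK kinases and the transcription factor STAT3. In bone, cytokines of this family are made by osteoblasts and stromal cells and act on the formation and resorption of bone. IL-4 acts through IL4R and STAT6, IL-7 through IL7R and STAT5, and IL-1 through IL1R1 and NF-kB. CCL26, also called eotaxin-3, is a chemokine that attracts eosinophils and is a known target of IL-4, IL-13 and STAT6.

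Between 37.2% and 41.0% of the probes were detected per array (detection p under 0.01 against negative control beads), and the summed bead signal lay between 34260000 and 44960000. CCAR2, the silenced gene, had a log2 signal of 9.88, 9.96 and 9.91 in siCCAR2 arrays D, E and F and of 11.43, 11.34 and 11.01 in siCTRL arrays A, B and C, which is 2.53-fold lower (adjusted p = 0.0394 from limma). Of the bone and mesenchymal markers, VIM, COL1A1, SPARC, RUNX2 and ALPL were detected in all arrays, COL1A2 and SP7 in none and BGLAP in 1. SPARC fell, to 10.16 ± 0.22 in siCCAR2 against 11.87 ± 0.29 in siCTRL cells (SD, n = 3 each, adjusted p = 0.0394 from limma), and whether this bears on the genes below was not tested. Of 6 epithelial markers 3 were detected in all arrays and 3 in none, and of 4 endothelial markers 2 in some arrays and 2 in none. IL7R and IL32 are best known from lymphocytes, but none of 9 leukocyte markers was detected in all arrays and 7, among them PTPRC, CD3E and CD2, were detected in none. CD79A was detected in 2 siCCAR2 arrays and 1 siCTRL array and CD14 in 1 siCCAR2 array, and their part in the results below was not tested. All 6 arrays lay on 1 chip with siCTRL and siCCAR2 in consecutive sections, so position and silencing cannot be told apart. A bulk signal also cannot separate more cells with a transcript from more transcript per cell, and the number of arrays limits the precision.

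Of the 10 genes, 8 had a higher mean signal in siCCAR2 than in siCTRL cells (50.9% of all genes did) and 2 a lower one, and their median log2 fold change was 0.47, beside 0.00 over all genes tested. CCL26, IL7R, EBI3 and IL6 had every siCCAR2 array above every siCTRL array (4 of 10, where 6.35% of all genes were separated in this direction), and 0 of 10 had every siCCAR2 array below (5.68% of all genes, 12.0% in either direction). The signal of CCL26 was 2.23-fold higher in siCCAR2 cells, that of IL7R 2.10-fold, IL32 1.78-fold and EBI3 1.74-fold. IL11, LIF and IL4R lay between 1.16-fold and 1.28-fold higher with overlapping groups, IL6ST was 1.18-fold lower, and IL1R1 hardly differed. The threshold was a 1.5-fold difference with a limma p, adjusted over all genes, not above 0.05. In limma 0 of the 10 genes passed it (3 genes in all, 0.0250%), with adjusted p between 0.131 and 0.996. At an unadjusted p under 0.05 were 4 of the 10, all higher (3.49% of all genes were, with 3.01% lower and 6.49% in either direction). IL6 is counted among these 4 and among the 4 separated genes, although no siCTRL array detected it. It was thus tested only through the group where it was higher.

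No label says which arrays were prepared together, although a sheet of the study is named as a paired comparison. The deviations of arrays from their group means, taken over 12013 genes, correlated at 0.615 for D with A, 0.665 for E with B and 0.440 for F with C. Of the 6 ways to pair the arrays this is the only one in which all 3 couples were above 0.1, so it was used for a second fit with the pair as a replicate block. With the block 4 of the 10 genes passed in limma, all of them higher (CCL26, IL7R, EBI3 and IL32, where 0.999% of all genes passed as higher, 0.666% as lower and 1.66% in either direction). An unadjusted p under 0.05 was then reached by 6 of the 10, all higher, beside 9.09% of all genes higher, 8.18% lower and 17.3% in either direction. IL6, tested only through siCCAR2 arrays, is again among these 6. Since several of the genes were picked for this contrast and the pairs were found in the same arrays, nothing is read from these counts.

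**Figure D1:**
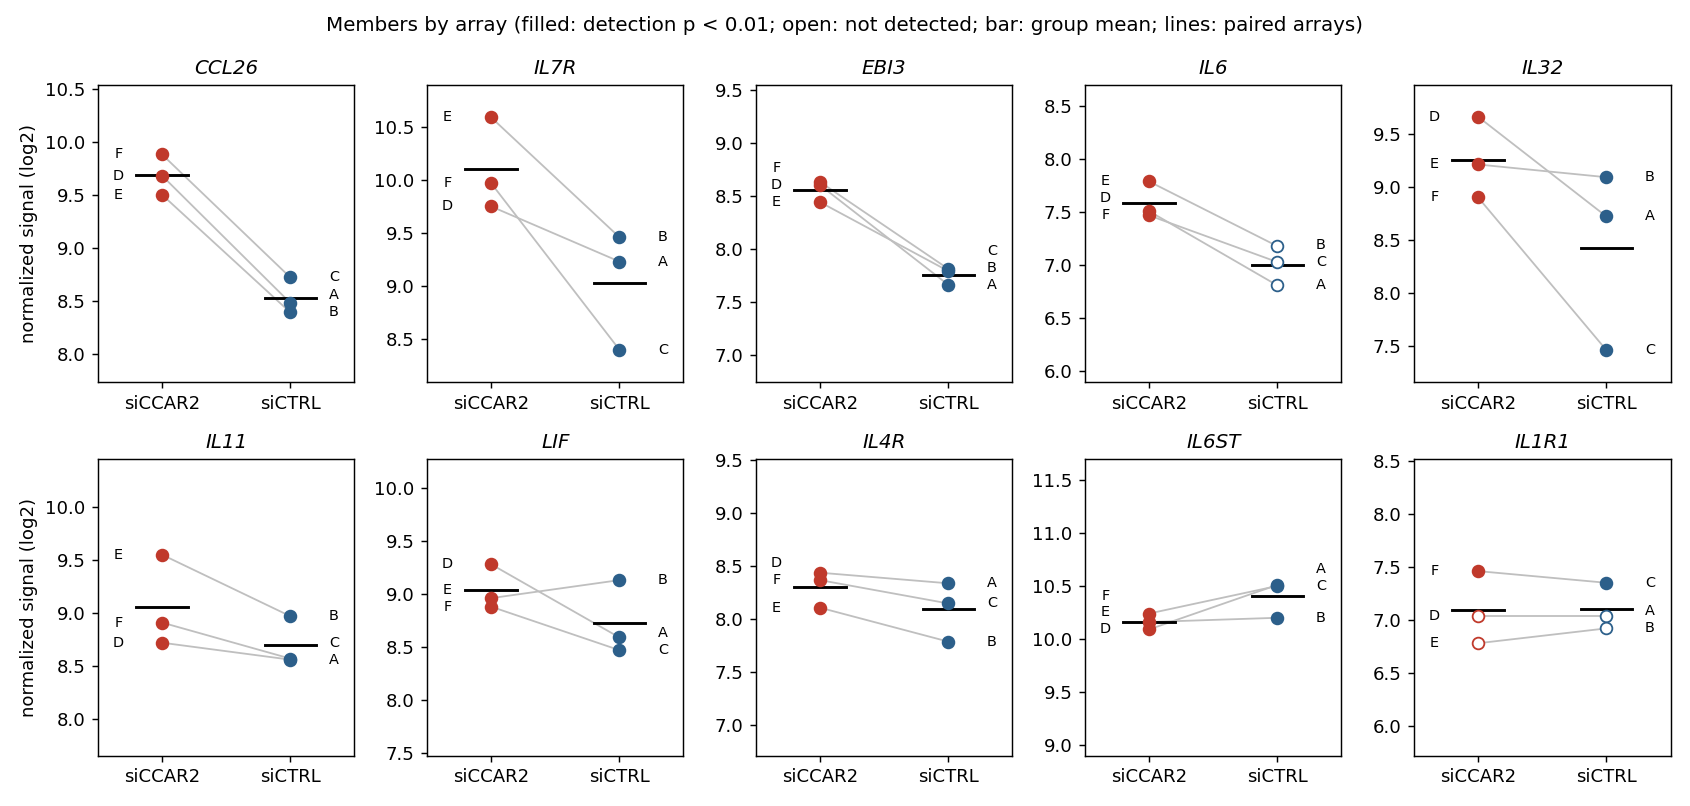
Normalized log2 signal of the probe used for each of the 10 genes, with siCCAR2 arrays D, E and F left and siCTRL arrays A, B and C right (panels have different offsets but the same height in log2 units). Filled points were detected, bars are group means and lines join the arrays of a pair. CCL26, IL7R, EBI3 and IL6 show no overlap between the groups, and the 3 siCTRL points of IL6 are not detected.

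CCL26 had the largest difference of the 10 genes and ranked 10 of 12013 genes by log2 fold change. Its mean bead signal was 757, 809 and 786 in siCCAR2 arrays D, E and F, against 383, 302 and 493 in siCTRL arrays A, B and C. After normalization the log2 signal was 9.68, 9.50 and 9.88 in siCCAR2 arrays and 8.48, 8.39 and 8.72 in siCTRL arrays. The lowest siCCAR2 array, E, lay above the highest siCTRL array, C, and the gap between the groups was wider than the spread within either. The means were 9.69 ± 0.19 in siCCAR2 and 8.53 ± 0.17 in siCTRL cells (SD, n = 3 each), a log2 fold change of 1.16 with a standard error of 0.16. The differences within the pairs were 1.20 for D minus A, 1.11 for E minus B and 1.16 for F minus C, so the 3 pairs gave nearly the same value.

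The start of CCL26 is shown with those of EBI3, IL7R, IL6 and IL32 because these 5 genes had the largest positive differences of the 10. Each is a RefSeq promoter window with 250 bases before the transcription start and 50 after it, printed 5′ to 3′ on the strand of the gene. Capitals mark matches, on either strand, to 5 motifs searched, which were the STAT motif TTCNNNGAA, the STAT6 motif (TTC and GAA with 4 bases of any kind between them), the AP-1 motif TGANTCA, the NF-kB motif and the TATA box TATAAA.
CCL26 promoter (GRCh38.p14, chr7:75789697-75789996, minus strand): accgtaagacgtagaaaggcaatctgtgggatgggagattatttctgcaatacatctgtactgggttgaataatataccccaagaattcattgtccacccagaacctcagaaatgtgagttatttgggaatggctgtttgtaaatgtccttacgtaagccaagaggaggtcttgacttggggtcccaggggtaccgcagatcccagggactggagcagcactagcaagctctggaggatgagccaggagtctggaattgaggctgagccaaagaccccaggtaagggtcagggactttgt
EBI3 promoter (GRCh38.p14, chr19:4229273-4229572, plus strand): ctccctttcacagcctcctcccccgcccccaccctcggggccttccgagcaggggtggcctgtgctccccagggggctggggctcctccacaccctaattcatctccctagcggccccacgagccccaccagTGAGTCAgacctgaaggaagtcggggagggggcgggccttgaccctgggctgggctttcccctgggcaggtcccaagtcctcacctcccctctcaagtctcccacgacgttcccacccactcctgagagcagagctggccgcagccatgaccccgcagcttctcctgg
IL7R promoter (GRCh38.p14, chr5:35856641-35856940, plus strand): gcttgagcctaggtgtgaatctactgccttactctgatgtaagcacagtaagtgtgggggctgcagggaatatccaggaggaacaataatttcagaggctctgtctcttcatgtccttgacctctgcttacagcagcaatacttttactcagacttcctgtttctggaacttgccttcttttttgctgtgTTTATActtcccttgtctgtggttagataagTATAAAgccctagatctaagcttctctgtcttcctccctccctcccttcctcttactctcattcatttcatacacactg
IL6 promoter (GRCh38.p14, chr7:22726950-22727249, plus strand): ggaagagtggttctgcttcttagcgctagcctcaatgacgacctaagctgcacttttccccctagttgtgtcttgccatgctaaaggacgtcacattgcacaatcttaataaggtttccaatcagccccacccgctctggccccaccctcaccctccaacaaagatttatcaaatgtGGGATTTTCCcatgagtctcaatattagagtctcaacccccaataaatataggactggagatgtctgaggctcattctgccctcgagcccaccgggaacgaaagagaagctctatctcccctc
IL32 promoter (GRCh38.p14, chr16:3065153-3065452, plus strand): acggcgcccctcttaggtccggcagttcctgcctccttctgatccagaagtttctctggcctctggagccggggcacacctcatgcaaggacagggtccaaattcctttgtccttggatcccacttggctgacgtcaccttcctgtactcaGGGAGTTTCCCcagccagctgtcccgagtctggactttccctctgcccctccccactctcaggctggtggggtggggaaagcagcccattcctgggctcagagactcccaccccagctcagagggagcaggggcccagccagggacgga

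The windows differ in what they hold. The IL6 window has 1 match to the NF-kB motif, GGGATTTTCC, which begins 73 bases before the start, and the printed IL32 window has overlapping NF-kB matches on the 2 strands that begin 99 and 98 bases before its start. The EBI3 window has 1 AP-1 match, TGAGTCA, 118 bases before the start. The IL7R window has TATA box matches 29 bases before the start on the strand of the gene and 60 bases before it on the other strand, whereas the CCL26 window has no match to any of the 5 motifs. Windows were found for 9 of the 10 genes (13 windows). Besides those shown, IL11 has an AP-1 match 96 bases before its start, IL4R has 2 NF-kB matches, and 1 of 4 windows of IL1R1 has a STAT match and 2 TATA box matches. Over 35116 windows of the same length, 7.66% hold the STAT motif, 6.44% the STAT6 motif, 7.71% the AP-1 motif, 5.91% the NF-kB motif and 11.5% the TATA box. The GC content was 49.0% for CCL26, 49.3% for IL6 and 44.3% for IL7R, against 68.3% for EBI3 and a median of 58.7% over all windows. A match is a stretch of letters and says nothing about binding in these cells.

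EBI3 encodes a soluble subunit that resembles a cytokine receptor and is secreted as a partner of other cytokine chains. Its log2 signal was 8.60, 8.44 and 8.63 in siCCAR2 arrays D, E and F, against 7.66, 7.79 and 7.81 in siCTRL arrays A, B and C. The 3 arrays of each group lay close together, with means of 8.56 ± 0.10 in siCCAR2 and 7.76 ± 0.08 in siCTRL cells (SD, n = 3 each). The log2 fold change was 0.80 with a standard error of 0.13, and the pairs gave 0.94, 0.65 and 0.81. Without D and A, EBI3 no longer passed in the paired limma fit (0.73, adjusted p = 0.0824). IL12A, which encodes a chain that EBI3 can bind, was not detected in siCTRL cells and was detected in 2 siCCAR2 arrays. Its log2 signal was 6.80, 7.42 and 7.26 in siCCAR2 and 6.50, 7.01 and 6.92 in siCTRL arrays, so the groups overlap and the signals were too near background for a fold.

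IL6 encodes interleukin 6, the founding member of the gp130 cytokines. It was detected in all 3 siCCAR2 arrays (detection p of 0.0013, 0.0013 and 0.0039 in D, E and F) and in no siCTRL array (0.0805, 0.0143 and 0.0195 in A, B and C). The bead signal was 175, 240 and 160 in siCCAR2 arrays and 114, 139 and 134 in siCTRL arrays. All signals are low, and the siCTRL values are not well above background, so only a bound can be given. Against the lowest detected signal of each siCTRL array, or the probe's own where that is higher, IL6 was at least 1.31-fold higher in siCCAR2 cells. The measured log2 means were 7.59 ± 0.18 in siCCAR2 and 7.01 ± 0.19 in siCTRL cells (SD, n = 3 each), and the pairs differed by 0.70, 0.61 and 0.43. IL6 did not pass the threshold in either fit. In limma its adjusted p was 0.684 unpaired and 0.0244 paired, and its measured fold of 1.49 was below 1.5. No siCTRL array detected it, so it was tested only through the group where it was higher.

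IL11 and LIF, which also encode gp130 ligands, were detected in every array and differed less. IL11 had a log2 signal of 8.72, 9.55 and 8.91 in siCCAR2 arrays D, E and F and of 8.56, 8.97 and 8.57 in siCTRL arrays A, B and C. Array E was high among the siCCAR2 arrays and array B among the siCTRL arrays, so that B lay above D and F. The bead signals before normalization were 397, 843 and 414 in siCCAR2 and 407, 449 and 440 in siCTRL arrays, where only E stands above the rest. The log2 fold change of IL11 was 0.36 (standard error 0.23), and it lay between 0.11 without array E and 0.53 without array D. LIF had a log2 signal of 9.28, 8.96 and 8.88 in siCCAR2 and 8.59, 9.13 and 8.47 in siCTRL arrays. Before normalization its bead signals were 579, 549 and 404 in siCCAR2 and 416, 500 and 411 in siCTRL arrays. Its log2 fold change was 0.31 (standard error 0.20), and the pairs did not go one way, with 0.69 for D minus A, -0.17 for E minus B and 0.41 for F minus C. Leaving out 1 array, it lay between 0.17 without array C and 0.51 without array B.

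IL32 encodes a cytokine of lymphocytes and epithelial cells that is made as several splice forms, and 2 probes report it. The probe used, assigned to NM_001012633, had a log2 signal of 9.66, 9.21 and 8.90 in siCCAR2 arrays D, E and F and of 8.72, 9.09 and 7.46 in siCTRL arrays A, B and C. Array C was low, and B lay above F, so the groups overlap. The means were 9.26 ± 0.39 in siCCAR2 and 8.42 ± 0.86 in siCTRL cells (SD, n = 3 each), and the log2 fold change of 0.83 had the widest standard error of the 10 genes, 0.38. The pairs differed by 0.94, 0.12 and 1.44, so most of the difference came from D over A and F over C. The other probe, assigned to NM_001012636, was detected in all arrays but hardly differed, at 7.87, 7.50 and 7.32 in siCCAR2 and 7.37, 7.64 and 7.31 in siCTRL arrays (log2 difference of 0.12). Without array A the rule for choosing a probe took this second probe, and the log2 fold change of IL32 was then 0.09. With the first probe it was 0.35 without array C and 1.17 without array B. In the paired fit IL32 no longer passed in limma without D and A (0.78, adjusted p = 0.216) or without F and C (0.53, adjusted p = 0.0674).

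IL7R encodes the alpha chain of the receptor for interleukin 7, which is also a chain of the receptor for TSLP. Both of its probes were detected in every array and both had higher signals in siCCAR2 cells. The probe used had a log2 signal of 9.75, 10.59 and 9.97 in siCCAR2 arrays D, E and F and of 9.23, 9.46 and 8.40 in siCTRL arrays A, B and C. The second probe had 11.02, 11.99 and 11.34 in siCCAR2 and 10.63, 11.02 and 10.27 in siCTRL arrays. E was the highest array by either probe and C the lowest, and array D reached only just past B by the second probe. The means of the probe used were 10.10 ± 0.43 in siCCAR2 and 9.03 ± 0.56 in siCTRL cells (SD, n = 3 each). The log2 fold change was 1.07 (standard error 0.30) by this probe and 0.81 by the second one, a fold of 2.10 and 1.76. The pairs differed by 0.52, 1.13 and 1.57 by the probe used and by 0.40, 0.97 and 1.07 by the second probe, so both placed the pairs in the same order. The difference was smallest without array C, at 0.76.

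**Figure D2:**
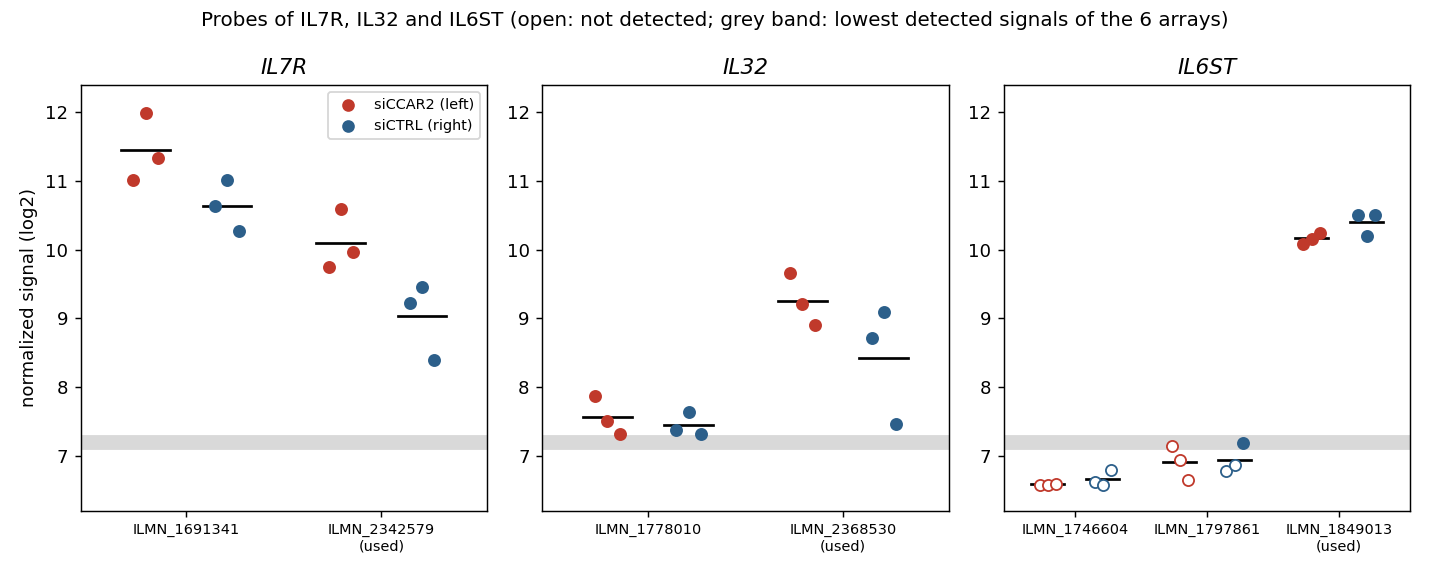
Normalized log2 signal of every probe of IL7R, IL32 and IL6ST, with siCCAR2 arrays left of siCTRL arrays for each probe, open points not detected and bars at the group means. The 2 probes of IL7R both lie higher in siCCAR2 cells (by 1.07 and 0.81), those of IL32 differ by 0.83 and 0.12, and 2 of 3 probes of IL6ST lie in or below the grey band of lowest detected signals.

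IL6ST encodes gp130, the receptor chain through which IL-6, IL-11 and LIF all signal. Of its 3 probes only 1, assigned to the accession AB074172, was detected in every array, a second was detected in array C alone and the third in no array. The detected probe had a log2 signal of 10.09, 10.16 and 10.24 in siCCAR2 arrays D, E and F and of 10.51, 10.20 and 10.50 in siCTRL arrays A, B and C. F lay above B, so the groups overlap slightly. The log2 fold change was -0.24 (standard error 0.14), and after normalization all 3 pairs were lower, by -0.43, -0.05 and -0.26. Before normalization its bead signals were 1010, 1300 and 1000 in siCCAR2 and 1570, 1050 and 1710 in siCTRL arrays, where E lay above B. By this probe the mean signal of IL6ST was lower in siCCAR2 cells, and those of its ligand genes IL6, IL11 and LIF were higher. None of these genes passed the threshold in either fit, and several of the genes described were picked for their rise. The other IL6ST probes, both assigned to NM_002184 and near background, differed by -0.08 and -0.03.

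IL4R and IL1R1, the receptor genes for interleukin 4 and interleukin 1, differed little. IL4R had a log2 signal of 8.44, 8.11 and 8.37 in siCCAR2 and 8.34, 7.79 and 8.15 in siCTRL arrays. After normalization each siCCAR2 array lay above its paired siCTRL array (by 0.10, 0.32 and 0.22), while the groups overlap. The bead signals before normalization were 326, 301 and 287 in siCCAR2 and 346, 203 and 325 in siCTRL arrays. There D lay below A and F below C. The log2 fold change was 0.21 (standard error 0.17). It was 0.06 without array B and 0.33 without array A. IL1R1 was detected only in F among the siCCAR2 arrays and in C among the siCTRL arrays. Its log2 signal was 7.04, 6.78 and 7.46 in siCCAR2 and 7.04, 6.92 and 7.35 in siCTRL arrays, near the lowest detected signals of 7.10 to 7.29. Its log2 fold change of -0.01 lay between -0.20 without array F and 0.15 without array E.

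**Figure D3:**
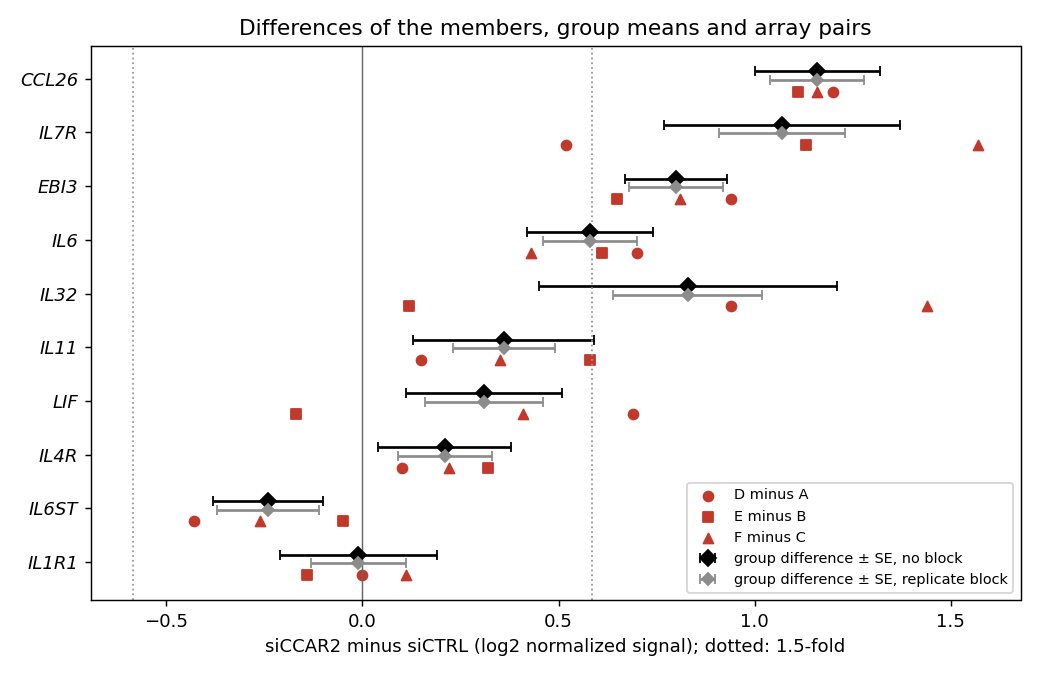
Log2 difference, siCCAR2 minus siCTRL, of the 10 genes. Black and grey diamonds are the group difference with its standard error without and with the replicate block, red symbols are the differences of the 3 array pairs, and dotted lines mark a fold of 1.5. The pairs of CCL26 lie between 1.11 and 1.20, whereas those of IL32 spread from 0.12 to 1.44.

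The 3 genes whose signals followed CCL26 most closely over the 6 arrays were RNF181 (Pearson r of 0.994), NAXE (0.989) and EBI3 itself (0.984). For IL7R they were ARHGAP45 (0.995), TOMM34 (0.988) and NDUFA9 (0.987). These are descriptions over 6 arrays in 2 groups, and the differences between the groups in these genes were smaller than those of CCL26 and IL7R, with log2 fold changes of 0.23 for RNF181, 0.38 for NAXE, 0.34 for ARHGAP45, 0.21 for TOMM34 and 0.38 for NDUFA9.

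Genes of the same pathways were described by list. For comparison, 50.9% of all genes tested lay above 0. An unadjusted p under 0.05 in limma was reached by 3.49% of all genes higher and 3.01% lower in the unpaired fit. In the paired fit these shares were 9.09% and 8.18%. Of 6 tested partners of the gp130 family, 3 lay above 0 and 3 below, with a median log2 fold change of 0.00, and none passed limma in either fit (unadjusted p under 0.05 for 0 genes in the fit without pairs and for 1 higher and 1 lower in the paired fit). The higher gene was IL12A, detected in no siCTRL array, so it was tested only through the group where it was higher. LIFR, which pairs with gp130 to bind LIF, had a log2 signal of 8.25, 8.26 and 8.15 in siCCAR2 and 8.33, 8.32 and 8.99 in siCTRL arrays. Its groups do not overlap (5.68% of all genes were separated as lower), and array C stood well above the others. CTF1, another ligand of this family, had a log2 fold change of 0.16. Of 21 genes of JAK-STAT signalling and its feedback, 12 lay above 0 and 9 below (median 0.04), and none passed limma in either fit (unadjusted p under 0.05 for 1 higher gene in the unpaired fit and for 2 higher and 2 lower in the paired one). STAT5A, a transcription factor downstream of IL-7, had 8.66, 8.51 and 8.66 in siCCAR2 and 8.24, 8.27 and 8.28 in siCTRL arrays, so that the groups do not overlap (12.0% of all genes do not). Its difference was 0.35, and the limma fits gave adjusted p of 0.767 unpaired and 0.157 paired. PIAS4 and PIAS2, which encode regulators of STAT proteins, had log2 fold changes of 0.30 and -0.31. In this list 3 of 21 genes, among them STAT5A and PIAS4, were separated as higher (6.35% of all genes) and 0 as lower. The genes STAT3, STAT6 and SOCS3 had 0.17, 0.10 and -0.10.

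Among 10 tested partners of IL-4, IL-7 and related cytokines, 5 lay above 0 and 5 below (median -0.01), and none passed limma in the unpaired fit (1 had an unadjusted p under 0.05, higher). IL13RA2, a receptor chain that binds IL-13 as a decoy, was past the threshold in the paired fit only (limma, adjusted p = 0.0427 paired and 0.747 unpaired). Its log2 signal was 6.93, 7.60 and 7.16 in siCCAR2 and 6.67, 6.29 and 6.65 in siCTRL arrays. It was detected in siCCAR2 array E alone, so it was tested only through the group where it was higher, and just a bound can be given, at least 1.02-fold higher. IL2RB had a log2 fold change of 0.27, IL3RA was also detected in 1 siCCAR2 array alone, and IL13RA1, the chain that joins IL4R in cells outside the blood, had -0.05. Of 11 tested genes of the interleukin 1 family and its adaptors, 7 lay above 0 and 4 below (median 0.08). None passed limma in either fit (unadjusted p under 0.05 for 0 in the unpaired and 1 higher in the paired fit), with IRAK2 at 0.28, SIGIRR, detected in 1 siCCAR2 array alone, at 0.21 and IL18BP at -0.26.

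Among the other chemokines no gene passed. Of 14 tested chemokine and chemokine receptor genes, 7 lay above 0 and 7 below (median 0.02), and 0 passed limma in either fit (unadjusted p under 0.05 for 0 in the unpaired fit, and for 1 higher and 1 lower in the paired one). CCL24, which encodes eotaxin-2, was detected in no siCCAR2 array and in 2 siCTRL arrays, with a log2 signal of 6.80, 6.42 and 6.56 in siCCAR2 and 7.55, 6.47 and 7.17 in siCTRL arrays. Array B lay below D and F, so the groups overlap. CCL24 is the lower gene counted above, and it was tested only through siCTRL arrays, the group where it was higher. ACKR3, a scavenging chemokine receptor, had a log2 fold change of 0.40 and CX3CL1 of -0.26, and both varied more between array pairs than between the groups. Of 16 tested genes of other interleukins and receptors, 7 lay above 0 and 9 below (median -0.06) and none passed limma (unadjusted p under 0.05 for 0 in the unpaired fit, and for 1 higher and 2 lower in the paired one), with IL17D at -0.58, IL17RB at -0.37 and IFNGR2 at 0.30.

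Targets of STAT3 went both ways, 16 of 24 above 0 (50.9% of all genes were) and 8 below, with a median of 0.07. None passed limma in the unpaired fit (1 higher and 1 lower had an unadjusted p under 0.05), and in the paired fit 4 higher and 2 lower genes had an unadjusted p under 0.05. Of these SERPINA3 alone passed the threshold. SERPINA3, a secreted protease inhibitor of the acute phase, fell by 0.95 on the log2 scale (limma, adjusted p = 0.0144, against 0.776 unpaired). Its log2 signal was 8.30, 7.45 and 7.91 in siCCAR2 and 9.35, 7.68 and 9.46 in siCTRL arrays, so the groups overlap. CEBPD, a transcription factor of the acute phase, had a log2 fold change of 0.48 and the survival gene BCL2L1 0.42 (limma, paired, adjusted p = 0.110 and 0.123).

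**Figure D4:**
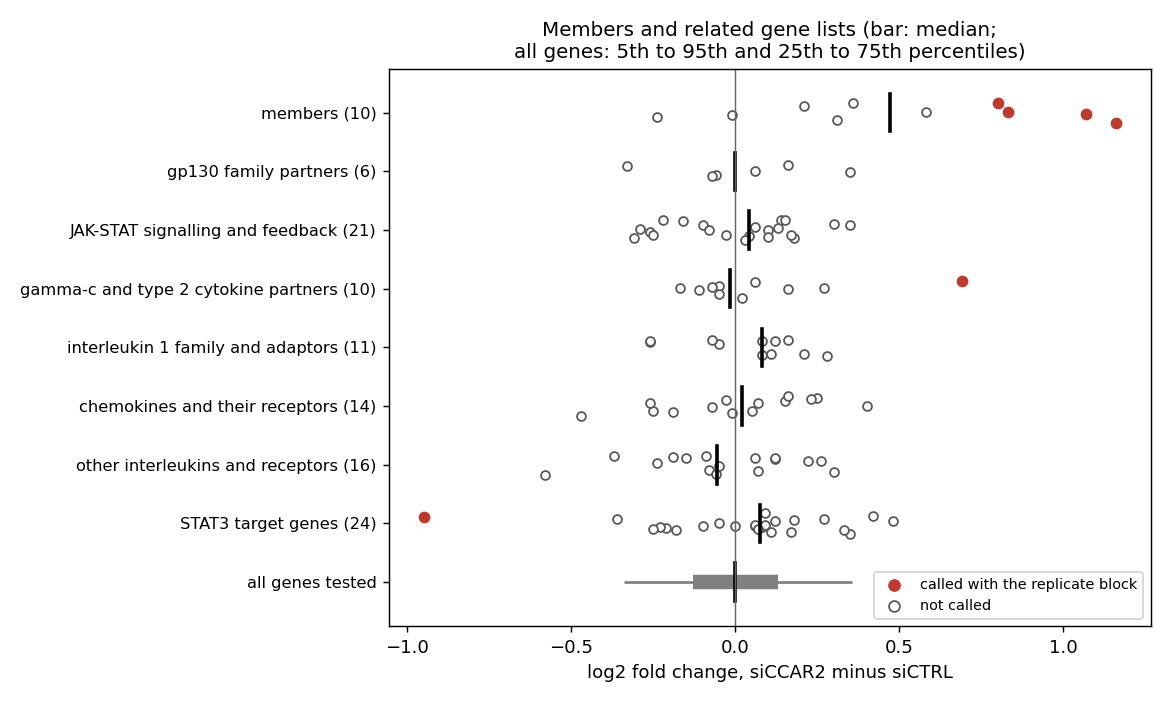
Log2 fold change, siCCAR2 minus siCTRL, of the 10 genes and of the tested genes of 7 related lists, with the number of tested genes in parentheses. Each point is a gene, filled red where it was called with the replicate block, black bars are medians, and the grey line and bar show all 12013 genes (5th to 95th percentile, -0.34 to 0.35, and 25th to 75th, -0.13 to 0.13). The 10 genes were chosen partly by this same difference, and the list medians lie between -0.06 and 0.08.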

How the data were processed

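Per the file headers, the authors deposited for every probe a bead intensity before normalization (linear scale) and a detection p-value. They also deposited a table of normalized intensity values, which is quantile normalized (largest relative deviation of 0.00527 from the averaged ranked signals). The labels name BeadStudio 3.8, the methods GenomeStudio, and background subtraction is not given in the sources used here. The methods' robust spline normalization was not run.

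No background was subtracted here before taking log2 and applying quantile normalization. Of 47321 probes, 30112 have 1 gene symbol, 8 several and 17201 none; 39 symbols were not found by gene identifier in RefSeq. Probes with a detection p under 0.01 in at least 1 array were kept, and per gene the probe detected in most arrays, then of highest interquartile range, as in the methods. siCCAR2 was compared with siCTRL by lmFit and eBayes (limma 3.58.1, R 4.3.3) with Benjamini-Hochberg adjustment over 12013 genes, without a block and with the pairs as a block. The fit was tested on simulated data. Promoter windows came from RefSeq GRCh38.p14. Figures were drawn with matplotlib 3.10.9. Alternatives were other normalizations (median scaling, cyclic loess, the deposited table, neqc with offset 16), other probe filters and choices, eBayes with trend and robust estimation, array weights, other pairings, other thresholds and leaving out arrays.

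The genes and lists were chosen with earlier results of these data known. Named are the 10 genes, CCAR2, the cell type markers, and of each list the called genes and the 3 of smallest p with the block, and for CCL26 and IL7R the 3 genes of highest correlation over the arrays; STAT3, STAT6, SOCS3, IL13RA1 and CCL2 are named besides, some after their values were seen.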

Additional observations from a re-analysis of the deposited data

How the results depend on the processing

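The log2 fold changes of CCL26, IL7R, EBI3, IL6, IL32, IL11, LIF and IL4R stayed positive and that of IL6ST negative under all 33 alternatives, whereas IL1R1 kept its sign in 25 of 30. The ranges were 1.02 to 1.33 for CCL26, 0.76 to 1.35 for IL7R, 0.70 to 1.07 for EBI3, 0.48 to 1.04 for IL6 and 0.09 to 1.19 for IL32, whose lowest value comes from the second probe. Without the block 0 of the 10 genes passed, except 2 with array quality weights (CCL26 and EBI3). Of 12 fits with the block in the pairing used, CCL26 passed in 12, IL7R in 11, EBI3 in 10, IL32 in 7 and IL6 in 4. These fits reuse the arrays in which the pairs were found and several genes were picked, so the counts are a description. Over all genes 1.66% passed with the block, and the counts of the other fits are given below. The count of the 10 genes was 4 with the block alone and with the deposited table, no filter, detection in at least 3 arrays or the probe of highest mean signal, 5 with cyclic loess, 3 with neqc or with trend and robust eBayes, and 2 with median scaling alone. That scaling put the all-gene median at -0.11. Leaving out each pair gave 2 to 5, with 2 without D and A (CCL26 and IL7R). Pairing F with A, E with B and D with C gave 2, and the other 4 pairings 0.

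Over all genes 3 passed. The count was 0 with median scaling alone, neqc, the probe of highest mean signal or the stricter thresholds (fold of 2 and adjusted p of 0.01), and 18 with array weights. Leaving out 1 array gave 0 to 7 (7 without B, 0 without any other). With the block it was 200, of which 120 higher, and 15 or 0 in other pairings. With the block it was 63 with median scaling, of which 22 higher, 204 with cyclic loess, 68 with neqc, 197 with the deposited table, 202 with no filter, 186 with detection in at least 3 arrays, 180 with the probe of highest mean signal and 172 with trend and robust eBayes. Leaving out a pair gave 71 (D and A), 509 (E and B) and 171 (F and C). The cause of these changes was not tested. The signals of IL6 and IL1R1 lie near the lowest detected ones, which limits their differences.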

Other observations

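Some chemokine and chemokine receptor genes differed more between the array pairs than between siCCAR2 and siCTRL. CCL2, a chemokine that attracts monocytes, chosen here after its values were seen, had a log2 signal of 12.66, 9.27 and 9.48 in siCCAR2 arrays D, E and F and of 12.50, 7.85 and 10.31 in siCTRL arrays A, B and C. Arrays D and A stood far above the others, and the difference between the groups was 0.25 with a standard error of 1.17. ACKR3 had 10.51, 12.05 and 11.36 in siCCAR2 and 9.85, 12.33 and 10.53 in siCTRL arrays, here with E and B the highest. CX3CL1 had 10.42, 9.43 and 10.25 in siCCAR2 and 10.66, 9.39 and 10.83 in siCTRL arrays, with E and B the lowest.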
